A study of Mus musculus with 7 samples.

Results

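The AP-2 transcription factors were read by 9 probes on the array used here, for the 5 genes *Tcfap2a*, *Tcfap2b*, *Tcfap2c*, *Tcfap2d* and *Tcfap2e* (now *Tfap2a* to *Tfap2e*), out of 41174 probes in all. Every probe that carried one of these gene names was included, and the family itself was chosen by its measured values in the contrast of *Shh* -/- against *Shh* +/+ pools. RNA came from posterior second heart field (pSHF) tissue of mouse embryos at E9.5, in 4 pools of *Shh* -/- embryos and 3 pools of *Shh* +/+ embryos, with 1 single-colour array per pool. All embryos came from crosses of *Shh* +/- females, superovulated with 2 hormones, to *Shh* +/- males on a mixed background that the labels write as C56B/6 and CD-1. Tissue of the same genotype was pooled after genotyping, so that each value is a pool and not an embryo, and the mutants carried the *Shh* mutation in all tissues. By the study's description, the dissected tissue was the dorsal mesenchymal protrusion with nearby ventral lateral plate mesenchyme and the attached foregut, and the neural tube, the heart and the dorsal part of the lateral plate mesenchyme were left out. A level in such tissue reflects both the number of cells of a type and the RNA per cell, and fewer cells and less RNA per cell cannot be told apart.

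The AP-2 proteins bind DNA as dimers through a basic and helix-span-helix region and recognise GC-rich palindromes. *Tfap2a* is known for its role in neural crest and surface ectoderm, *Tfap2b* for neural crest, the ductus arteriosus and the kidney, *Tfap2c* for trophoblast, ectoderm and germ cells, *Tfap2d* for the midbrain and retina, and *Tfap2e* for the olfactory bulb. Cardiac neural crest, which carries *Tfap2a* and *Tfap2b*, reaches the outflow tract and great arteries near the second heart field, and surface ectoderm lies outside the mesoderm that was dissected.

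Same-numbered pools (1, 3 and 4) of both genotypes were hybridized on a common slide. The mutant pool took the first array position on each of these slides, and position cannot be told apart from genotype. Mutant pool 2 had a slide to itself, and according to its label the array may have leaked. Of all probes, 59.96% to 70.64% were well above background on an array. *Shh* itself had normalized log2 signals of 9.67, 9.40, 9.26 and 9.28 in the mutants (pools 1 to 4) against 10.74, 10.77 and 10.01 in the wild type (pools 1, 3 and 4), with no overlap. *Hhip*, *Gli1* and *Ptch1*, which read out Hedgehog signaling, were each lower in the mutants without overlap between genotypes, and limma called *Hhip* (−2.67 on the log2 scale, adjusted p = 0.000378). All 14 markers of the second heart field passed the filter on dim probes, *Isl1* and *Tbx5* among them.

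The probes themselves set what can be said of each gene, and their sequences are shown because probes of one AP-2 gene did not read alike. Positions are those of the array's annotation (mm9). Both *Tcfap2a* probes lie on the minus strand of chromosome 13. The *Tcfap2a* probe A_51_P443062 covers chr13:40820499-40823719, 3221 bases for a 60-base probe, so that it crosses an intron, and it was not well above background on any array.
Tcfap2a A_51_P443062: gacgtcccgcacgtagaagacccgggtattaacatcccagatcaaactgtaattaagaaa
The other *Tcfap2a* probe, A_52_P205831, lies without a gap at chr13:40812207-40812266 and was well above background on all 7 arrays. The *Tcfap2c* probe, A_51_P418820, at chr2:172383860-172383919 on the plus strand, was above background on all 7 as well. The first 30 bases of each are given.
Tcfap2a A_52_P205831: ccatcagcaccaacaccccctttaccctcg
Tcfap2c A_51_P418820: tttatgcgagtgcacacagggtattgaaac

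*Tcfap2b* had 3 probes on the plus strand of chromosome 1. A_51_P248345 (chr1:19224486-19224545) and A_51_P248344 (chr1:19224526-19224585) are shifted by 40 bases and share 20. In the stretches of 30 bases below, from the end of A_51_P248345 and the start of A_51_P248344, the capitals mark the shared bases.
Tcfap2b A_51_P248345: gctttggaggAATTATATTAGGTAGAATAC
Tcfap2b A_51_P248344: AATTATATTAGGTAGAATACacatacaatc
A_51_P248345 was well above background on all 7 arrays, with mean signals before normalization of 152 to 315 intensity units. A_51_P248344, of similar base composition (25% G and C, against 26.7%), was not well above background on any array, with signals of 25.8 to 35.2 units. The mean of the negative control spots was 28.1 to 37.4 units over the arrays. The remaining *Tcfap2b* probe, A_52_P352771 (chr1:19226634-19226693), was dim, at 53.8 to 69.0 units, and was well above background on all arrays but that of mutant pool 2.

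*Tcfap2d* had 1 probe, A_51_P398833, at chr1:19138386-19138445 on the plus strand. Its signals of 29.8 to 40.6 units were near those of the negative controls, and it was not well above background on any array, so that only a bound on its level was measured. *Tcfap2e* had 2 probes on the minus strand of chromosome 4. A_52_P313382, at chr4:126412661-126412720 and 75% G and C, was well above background on all 7 arrays. A_52_P554594, at chr4:126393440-126393499, was not well above background on any. The sequences of the *Tcfap2d* probe and of the *Tcfap2e* probe that gave a signal follow.
Tcfap2d A_51_P398833: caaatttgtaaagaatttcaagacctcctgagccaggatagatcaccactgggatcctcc
Tcfap2e A_52_P313382: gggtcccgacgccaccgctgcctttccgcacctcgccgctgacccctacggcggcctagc

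In all, 5 AP-2 probes of 4 genes passed the filter on dim probes, for which a signal had to be well above background on all arrays of 1 genotype or of both. They stand among 23129 probes of 14896 genes that did. The family was chosen with this contrast in view, so the values of its members are a description, and no test is given for them. All 5 had a lower mean in the mutants, by amounts that ran from −0.07 to −1.16 on the log2 scale. Of these, A_52_P352771 of *Tcfap2b* passed the filter through the wild-type pools alone. No overlap between genotypes was seen for 2 of the 5. Over all probes with a value on every array, 3.43% lay lower without overlap and 3.86% higher, and 0 of the 5 lay higher. At least 2-fold lower were 1 of the 5 and 0.372% of all probes. These counts in the family follow from how it was chosen.

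*Tcfap2c* had the widest gap. The 4 mutant pools gave normalized log2 signals of 7.17, 7.50, 7.29 and 7.58 in order of their numbers, and wild-type pools 1, 3 and 4 gave 8.68, 8.57 and 8.37. All mutant values were lower than all wild-type values, and the pools of a genotype lay close together. The means were 7.38 ± 0.19 (SD, n = 4) and 8.54 ± 0.16 (SD, n = 3), a change of −1.16 (standard error 0.13), or 2.23-fold lower. The mutant pools kept 44.8% of the wild-type signal. Within the slides of pools 1, 3 and 4 the difference was −1.51, −1.29 and −0.79, the same direction on each.

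*Tcfap2b*, read by A_51_P248345, was at 7.84, 7.49, 7.02 and 7.29 in the mutant pools and at 8.11, 8.13 and 8.04 in the wild-type pools. The genotypes did not overlap, but the mutant pools spread widely, and pool 1 came near the wild-type pools. The means were 7.41 ± 0.34 (SD, n = 4) and 8.09 ± 0.04 (SD, n = 3), a change of −0.68 (standard error 0.18), which leaves 62.4% of the wild-type signal. The differences within slides were −0.27, −1.11 and −0.75. The dim *Tcfap2b* probe A_52_P352771 did not show this gap. It was at 5.52, 5.01, 5.20 and 5.52 in the mutant pools and at 5.49, 5.46 and 5.28 in the wild-type pools, which overlap, with a change of −0.10 (standard error 0.15).

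*Tcfap2a*, read by A_52_P205831, was at 7.11, 6.74, 6.87 and 7.26 in the mutant pools and at 7.63, 7.77 and 7.17 in the wild-type pools. Wild-type pool 4 lay below mutant pool 4, so the genotypes overlapped. The means were 7.0 ± 0.24 (SD, n = 4) and 7.52 ± 0.32 (SD, n = 3), a change of −0.53 (standard error 0.18), and the differences within slides were −0.52, −0.89 and 0.09. Wild-type pool 4 had the lowest value among wild-type pools for *Tcfap2a*, *Tcfap2b* (A_51_P248345) and *Tcfap2c*, and also for *Shh*. The same pool had the highest *Gli1* (7.65) of the wild-type pools.

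*Tcfap2e*, read by A_52_P313382, was at 9.35, 8.92, 9.22 and 9.79 in the mutant pools and at 9.23, 9.51 and 9.43 in the wild-type pools. The mutant values reached above and below the wild-type ones. The change was −0.07 (standard error 0.19), with differences within slides of 0.12, −0.29 and 0.36. The 4 dim probes, that of *Tcfap2d* included, had measured changes of −0.05 to 0.25, which at background bear on no level.

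**Figure D1:**
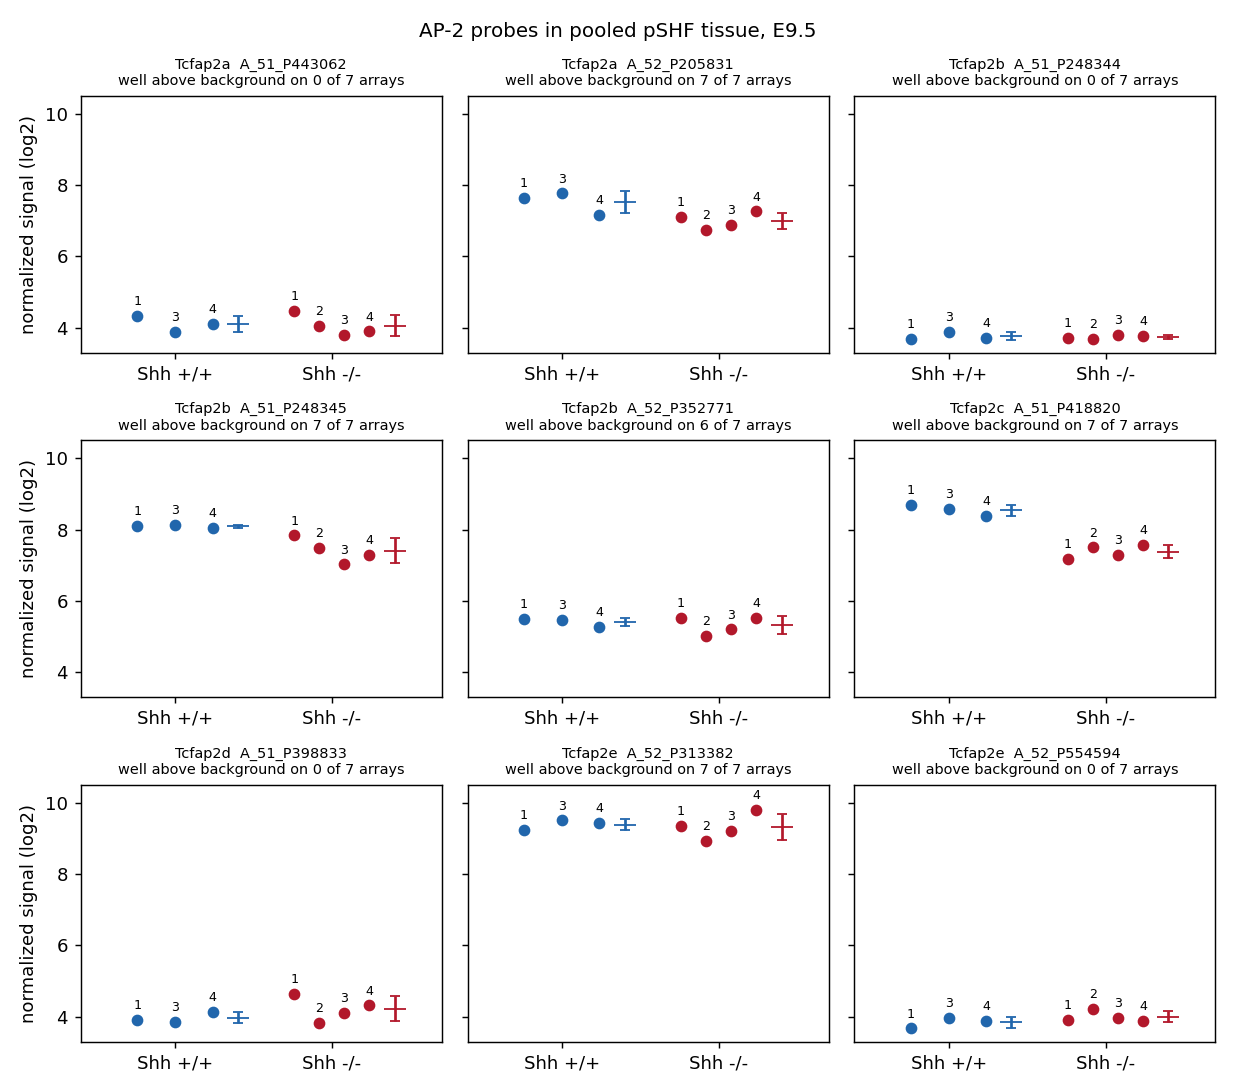
Normalized log2 signal of the 9 AP-2 probes, 1 panel a probe, with each pool as a point marked by its number (blue, Shh +/+; red, Shh -/-) and the mean ± SD beside it. The red points lie below the blue ones without overlap for Tcfap2c and for the Tcfap2b probe A_51_P248345, and the 4 probes at 0 of 7 arrays lie along the floor.

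**Figure D2:**
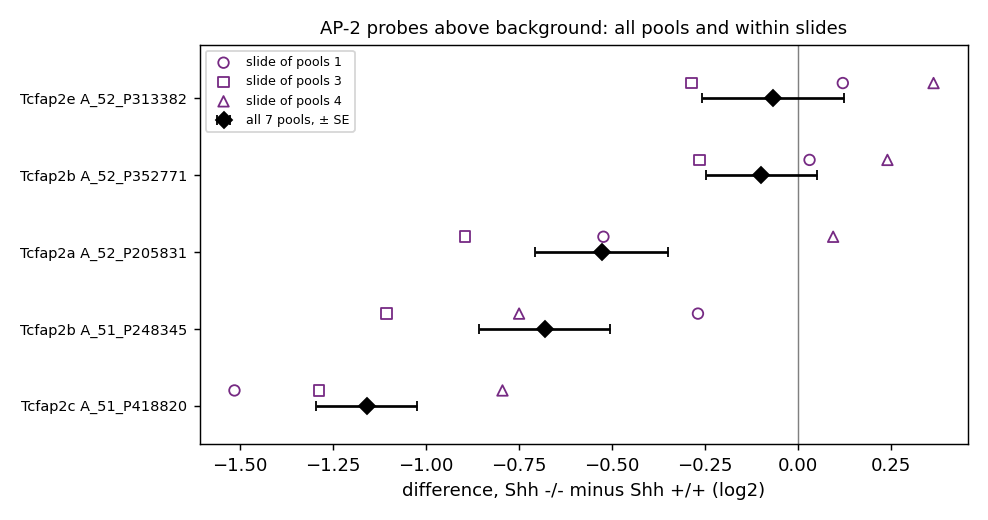
Difference between Shh -/- and Shh +/+ on the log2 scale for the 5 AP-2 probes above background, as a black diamond with its standard error for all 7 pools and as open symbols for each slide that held both genotypes. All 3 slides give a lower mutant value for Tcfap2c and for A_51_P248345 of Tcfap2b, while the slides of the other 3 probes lie on both sides of 0.

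Leaving out mutant pool 2, the array that may have leaked, gave changes of −0.44 for *Tcfap2a*, −0.71 for *Tcfap2b* (A_51_P248345), −1.20 for *Tcfap2c* and 0.07 for *Tcfap2e*. Over the 7 ways to leave out 1 pool, *Tcfap2c* stayed between −1.24 and −1.09, *Tcfap2b* between −0.82 and −0.55, and *Tcfap2a* between −0.71 and −0.40. With the slide as a replicate block they were −1.20, −0.71 and −0.44. These equal the values without mutant pool 2, which had a slide to itself. The authors' own normalized values gave −1.80, −1.33 and −1.11, each with a standard error of 1.14. In those values the array median of mutant pool 2 was 5.50, against 8.57 to 9.93 for the other arrays. The median change of all probes was itself lower in the mutants by 0.54 (−0.54). Relative to that median the changes were −1.26 for *Tcfap2c*, −0.79 for *Tcfap2b* (A_51_P248345) and −0.57 for *Tcfap2a*, with −0.14 for *Tcfap2e* and 0.06 for A_52_P352771.

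**Figure D3:**
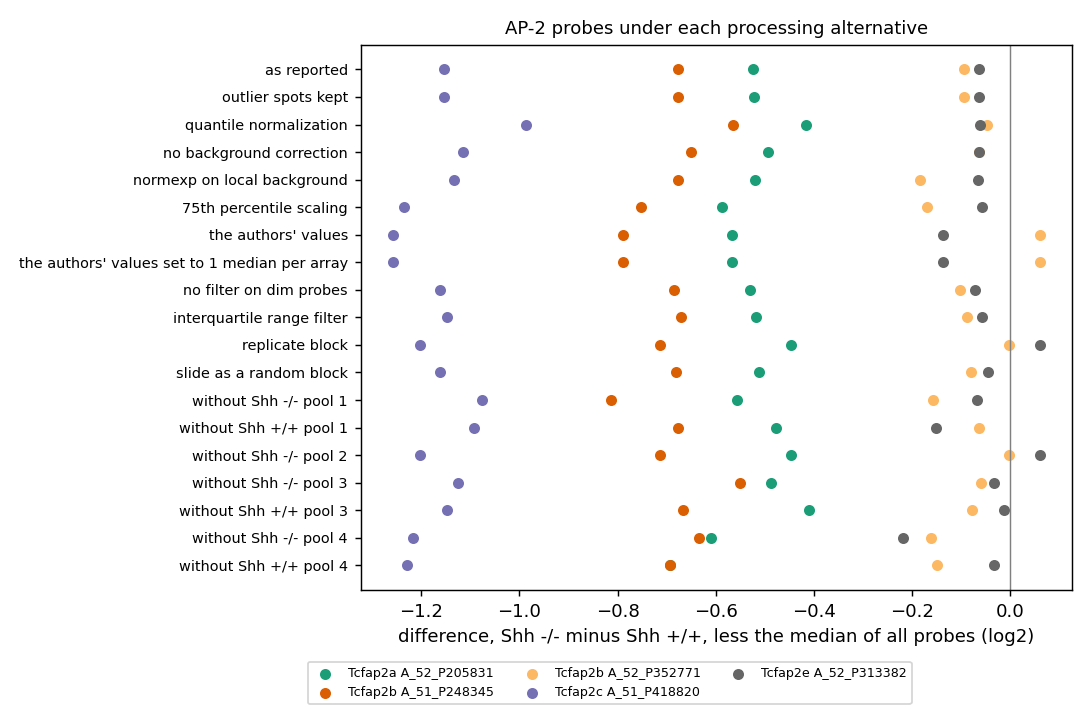
Difference between Shh -/- and Shh +/+ for the 5 AP-2 probes above background, less the median difference of all probes (log2), under each way of processing, from the reported one at the top to each pool left out at the bottom. The points of Tcfap2c, Tcfap2b (A_51_P248345) and Tcfap2a stay left of 0 in every row, while Tcfap2e and A_52_P352771 of Tcfap2b lie around 0.

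Across the 7 arrays the *Tcfap2c* signal followed *Tcfap2a* (Pearson r = 0.79) and A_51_P248345 of *Tcfap2b* (r = 0.77), as a description over arrays that share the genotype gap. With each genotype centred on its own mean, r was 0.38 and −0.24. The dim *Tcfap2b* probe A_52_P352771 followed *Tcfap2a* (r = 0.74) and *Tcfap2e* (r = 0.74), and did so within genotypes too (0.85 and 0.74). The *Tcfap2b* probes A_51_P248345 and A_52_P352771 followed each other less (r = 0.40, and 0.33 within genotypes).

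The genes whose signal was most like that of each AP-2 gene were sought among 14830 genes, by Pearson r over the 7 arrays. For *Tcfap2c* they were *Terf1*, which encodes a telomeric repeat binding protein (r = 0.997), 9130206I24Rik, *Chrdl1*, a secreted BMP antagonist, *Nlgn3*, a synaptic adhesion protein, and *Irx1*, an Iroquois homeobox gene (r = 0.982). For *Tcfap2b* they were *Fhdc1* (r = 0.964), *Srebf1*, a regulator of lipid synthesis, *Nkx6-1*, a homeobox gene of ventral neural progenitors, *Tnfrsf19* and *Zdhhc20* (r = 0.950). For *Tcfap2a* they were *Rhox4e* (r = 0.973), *Wfikkn1*, *Sostdc1*, a secreted antagonist of BMP and Wnt signaling, *Wdr51a* and *Hrh3* (r = 0.961). For *Tcfap2e* they ran from *Wbp5* (r = 0.984) through *Pqbp1*, D230014K01Rik and *Tfpt* to 2210409E12Rik (r = 0.971). With so many genes and 7 arrays, values of this size are a ranking only.

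Other genes were tested with limma, with Benjamini-Hochberg adjustment over all 23129 probes, of which 125 (0.54%) passed an adjusted p of 0.05, 71 lower (0.307%) and 54 higher (0.233%). The median change over all probes was −0.0042. Of 12 genes whose proteins act with AP-2 factors as coactivators, repressors or modifiers, *Cited1* rose and none fell. *Cited1*, a transcriptional coactivator of the CITED family, was at 12.87, 13.03, 12.90 and 12.92 in the mutant pools and at 12.28, 12.27 and 12.29 in the wild-type pools. The genotypes did not overlap, and the mutants were higher by 0.65 (standard error 0.09) with an adjusted p of 0.0331 by limma. The call was lost on leaving out any 1 of the 7 pools (adjusted p up to 0.137, without wild-type pool 1) and under the replicate block (adjusted p = 0.109). The related *Cited2* was at 0.02 (standard error 0.20) and *Cited4* at −0.57 (standard error 0.28, adjusted p = 0.799), and the histone acetyltransferase genes *Ep300* and *Crebbp* were at 0.30 and 0.15. The list had a median of 0.02, with 4 of 12 genes lower.

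Of 16 genes reported as AP-2 targets in other tissues, 15 passed the filter on dim probes and the estrogen receptor gene *Esr1* did not. *Krt5*, a keratin of basal epithelium, fell and no other passed the test. It was at 7.40, 7.38, 7.38 and 8.0 in the mutant pools and at 8.80, 8.48 and 8.50 in the wild-type pools, and fell by 1.05 (standard error 0.17) with an adjusted p of 0.0475 by limma. Mutant pool 4 stood apart from the other mutant pools but still below the wild-type pools. The call held with 1 of the 7 pools left out and not with the other 6 (adjusted p up to 0.208, without wild-type pool 1), and was lost under the replicate block (adjusted p = 0.109). *Krt14*, the usual partner of *Krt5*, was at 0.36 (adjusted p = 0.623), *Hoxa2*, a patterning gene of the hindbrain and neural crest, at −0.33 (adjusted p = 0.635) and *Dbh*, an enzyme of noradrenaline synthesis, at −0.48 (limma's adjusted p near 1). *Kit* (−0.02), *Erbb3* (−0.18) and *Cdkn1a* (0.01) were near 0. The list had a median of −0.05, with 9 of 15 genes lower.

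Markers of the cell types that carry AP-2 factors were read as lists. Of 20 neural crest markers 19 passed the filter, all but *Sox5*, with 14 lower and a median of −0.13. Over all genes by their brightest probe, 49.1% were lower. Of the 19, 5 lay lower without overlap and 1 higher, against 3.43% and 3.86% of all probes. By limma 7 of the 19 had an unadjusted p under 0.05, against 1688 of 23129 over the array. The same count was 6 of 18 for surface ectoderm and 6 of 14 for sympathetic and cardiac crest. At an adjusted p under 0.05, 2 of the 19 neural crest markers fell, against 0.307% of all probes. These were the homeobox genes *Dlx1* (−1.46, standard error 0.13, limma's adjusted p = 0.00607) and *Dlx2* (−1.29, standard error 0.15, limma's adjusted p = 0.0138), neither overlapping between genotypes. *Dlx1* passed with any pool left out and *Dlx2* in 4 of 7 such fits (adjusted p up to 0.0837, without wild-type pool 1) and not under the replicate block (0.0570). The crest genes *Sox10* (−0.47, adjusted p = 0.544), *Foxd3* (−0.54, adjusted p = 0.671) and *Pax3* (−0.49, adjusted p = 0.734) did not pass the test. By their brightest probes, *Sox9* (−0.02), *Ets1* (−0.09) and *Ngfr* (−0.07) were near 0. The 5 higher genes were *Twist1* (0.14), *Ednrb* (0.17), *Snai2* (0.22), *Msx2* (0.23) and *Msx1* (0.28). The mean log2 signal of the 19 genes was 9.96 to 10.17 in the mutant pools and 10.26 to 10.46 in the wild-type pools, without overlap. This mean includes *Dlx1* and *Dlx2*, which had the largest changes of the list, so it does not show a shift of the markers as a group. The lists for sympathetic and cardiac crest (8.76 to 8.95 against 8.98 to 9.15), the second heart field (10.99 to 11.21 against 11.47 to 11.49) and the foregut endoderm (10.73 to 10.85 against 11.01 to 11.14) did not overlap either, so that this is not particular to neural crest. *Sox10*, *Foxd3* and *Pax3* were well above background on all 7 arrays. The part of these lists in the lower values of *Tcfap2a* (A_52_P205831), *Tcfap2b* (A_51_P248345 alone) and *Tcfap2c* was not tested.

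Of 20 surface ectoderm markers, 18 passed the filter (*Grhl3* had no probe and *Dlx3* was too dim), 9 lower and 9 higher with a median of 0.03, and *Krt5* alone passed the test. The mean log2 signal was 10.47 to 10.58 in the mutant pools and 10.45 to 10.67 in the wild-type pools, which overlap. The largest changes among genes of the list that did not pass were upward, *Dsp* at 0.42 (limma's adjusted p = 0.615), *Krt14* at 0.36 and *Krt8* at 0.35. *Trp63*, the master regulator of basal epithelium, was at −0.31 (adjusted p = 0.95) and *Gata3* at −0.34 (limma's adjusted p = 0.493). Several keratins of the list are also made by the foregut. Among 14 genes of sympathetic and cardiac crest, *Phox2a*, an autonomic neuron homeobox gene, fell (−1.12, standard error 0.18, limma's adjusted p = 0.0450), with its call kept in 1 of 7 fits that left out a pool (adjusted p up to 0.166, without wild-type pool 4) and lost under the replicate block (0.0601). That list had a median of −0.11, with 10 of 14 lower. In it 4 genes lay lower without overlap and 1 higher, and in the surface ectoderm list 2 and 1, against 3.43% and 3.86% of all probes. The single call of each list stands beside 0.307% of all probes called lower.

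The tissue itself and its neighbours were read by lists as well. Of 14 second heart field genes, 9 were lower with a median of −0.20, and *Foxf2* fell (−2.46, limma's adjusted p = 0.00117). *Osr1* (−0.92), *Tbx1* (−0.82) and *Foxf1a* (−0.77, limma's adjusted p = 0.0860) were lower without overlap but did not pass. Of the 14, 5 lay lower without overlap and 0 higher, against 3.43% and 3.86% of all probes. By limma 5 of the 14 had an unadjusted p under 0.05, and 5 of 12 foregut genes did. For the foregut endoderm 1 of 12 fell (*Nkx2-1*, −0.87, limma's adjusted p = 0.0475, median −0.18). For the neural tube 2 of 7 measured genes fell (*Zic1* and *Nkx6-1*, median −0.14). Over all probes, 0.307% were called lower. Without overlap, 3 of 12 foregut genes lay lower, the targeted gene *Shh* among them, and 1 higher. Of the 7 neural tube genes, 2 lay lower without overlap and 0 higher, against the same 3.43% and 3.86%. The calls of *Nkx2-1*, *Zic1* and *Nkx6-1* each held in 1 of 7 fits that left out a pool, with an adjusted p of up to 0.208 without wild-type pool 1, and were lost under the replicate block (0.0607, 0.0763 and 0.0878). The neural tube was left out of the dissection. The mean log2 signal of its list was 7.55 to 8.19 in the mutant pools and 8.35 to 8.48 in the wild-type pools. *Neurog2*, 1 of the 7, ran from 4.17 to 8.41 over the mutant pools, with pool 1 above all wild-type pools, which widens the spread of this mean. *Neurog1* and *Olig2* were at −0.14 and −0.05, and of the 7 genes 5 were lower and 2 higher. The part of the neural tube in the AP-2 values was not tested. *Sox1*, *Pax7*, *Pou3f2* and *Dbx1* of that list were too dim to test.

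**Figure D4:**
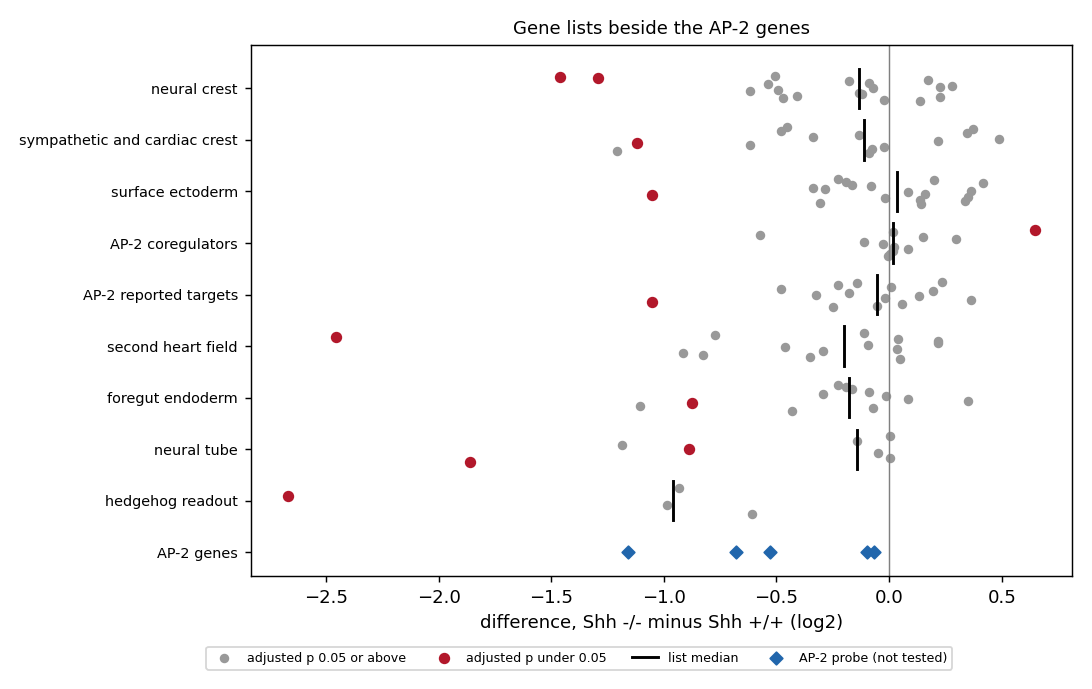
Difference between Shh -/- and Shh +/+ on the log2 scale for each measured gene of 9 lists (grey, adjusted p of 0.05 or above; red, under 0.05; black bar, list median) and for the 5 AP-2 probes above background (blue diamonds, not tested). The surface ectoderm and AP-2 coregulator medians lie at 0.03 and 0.02 and the neural crest median at −0.13, with Dlx1 and Dlx2 at the left of that row.

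The genes next to the AP-2 genes were read as well, since *Tfap2d* and *Tfap2b* lie beside each other on chromosome 1, with 34960 bases between them, and the other 3 lie on chromosomes 13, 2 and 4 (GRCm38). Of 24 neighbouring genes, the 3 nearest on each side, 22 had a probe and 16 passed the filter. By limma 0 of the 16 passed the adjusted threshold and 1 had an unadjusted p under 0.05, against 1688 of 23129 over the array. They had a median of −0.0027, with 10 lower and 6 higher. The lowest adjusted p was that of *Ofcc1*, next to *Tfap2a* (−0.63, adjusted p = 0.144), while *Gcnt2* on the other side of *Tfap2a* was at 0.06, *Bmp7* beside *Tfap2c* at 0.08 and *Pkhd1* beside *Tfap2b* at −0.0037.

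RefSeq promoters (GRCm38.p6, 250 bases before to 50 after the start) were listed for 4 of the 5 genes, 7 windows in all, and not for *Tfap2c*. Neither the AP-2 palindrome GCCNNNGGC nor the GLI site GACCACCCA, on either strand, was in any of the 7 windows. Over all 32851 windows, 16.6% held the first and 0.253% the second. This says only that these letters are not in these windows.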

How the data were processed

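Scan files deposited by the authors give the signal and local background of each spot as intensity, read with Agilent Feature Extraction 10.5.1.1 (submitters' processing notes), and a series table gives log2 values that the authors normalized. The authors' methods name background correction, exclusion of outlier spots and variance-stabilizing normalization (VSN). In the labels the genotype field holds the strain and the strain field the genotype, and each was taken for its content. The AP-2 genes, lists and tests were chosen with earlier results of these data known.

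From the scans of 43379 spots, the background of the mean signals was removed by normexp, with its level taken from 153 negative control spots (offset 50). Outlier spots (155 to 206 per array) were left out, spots of a probe were averaged, and VSN was applied (own implementation, trimming share 0.9, 7 iterations, 5 strata), on the log2 scale. No spot was saturated. Genotypes were compared with limma 3.58.1 (R 4.3.3, data.table package 1.17.8) as mutant minus wild type, with at least 2 values per genotype, and each list gene was read by its brightest measured probe. Every AP-2 probe was named, and for each list up to 6 genes past an adjusted p of 0.05 and up to 3 others by size of change, with some further list genes added after their values were seen. Array medians lay between 6.34 and 6.46. The scripts were tested on simulated data.

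The slide gives the replicate number. Correlations of deviations from the genotype means were 0.194, 0.286 and 0.0629 for arrays of the same slide and −0.223 to 0.182 (mean −0.0575) for 9 pairs from different slides. The number of arrays limits precision, and p-values measure the spread between pools. Alternatives were 75th percentile scaling, quantile normalization, no background correction, normexp on the local background (with parameters from negative controls, since limma's default estimate was not usable on these arrays), inclusion of dim probes, a filter on the interquartile range, inclusion of outlier spots, the values of the authors, slide as a fixed or random block (consensus correlation 0.146), and each pool left out. An alternative chosen after seeing the data gave the arrays of the authors' series a common median. Figures and sequences used Python 3.11.15, pandas and matplotlib. SAM, the test of the methods, was not run here, and some genes of the lists are not reported here.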

Additional observations from a re-analysis of the deposited data

Results flagged for a closer look

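No AP-2 probe had a pool that stood apart from the other mutant pools by Dixon's criterion for 4 values. Of the 39 groups checked, 3 had one, all in other genes, and chance alone gives such a pool in about 1 in 20 groups, so that 3 is near what chance gives. *Krt5* stood at 8.0 in mutant pool 4 and at 7.38 to 7.40 in the other 3 (gap over range 0.9745). *Tbx1*, a transcription factor of the pharyngeal region and second heart field, stood at 13.33 in mutant pool 4 and at 12.58 to 12.70 in the other 3 (0.8368). *Dlx2* stood at 8.98 in mutant pool 2 and at 9.38 to 9.45 in the other 3 (0.834).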

How the results depend on the processing

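*Tcfap2a*, *Tcfap2c* and the *Tcfap2b* probe A_51_P248345 were lower in the mutants under all 18 alternatives, from −1.11 to −0.40, −1.80 to −0.99 and −1.33 to −0.55. These alternatives are not all separate checks. Inclusion of dim probes and the interquartile range filter change only the set of probes and cannot change these estimates. The replicate block gave the same estimates as leaving out mutant pool 2. The authors' values moved all 5 measured AP-2 probes, to −1.11, −1.33, −0.48 (A_52_P352771), −1.80 and −0.68 (*Tcfap2e*), and set to 1 median per array they put A_52_P352771 at 0.13. A_52_P352771 was higher in the mutants under 3 alternatives and *Tcfap2e* under 2, up to 0.07. The 125 calls over the array became 56 under 75th percentile scaling, 38 with no filter on dim probes, 10 with the replicate block, 200 with the slide as a random block and 0 in the authors' values (28 at an unadjusted p under 0.05, or 1038 with 1 median per array and again 0 adjusted), and 9 to 113 with 1 pool left out, with 33 without mutant pool 2, 9 without mutant pool 3, 78 without mutant pool 4, 17, 33 and 41 without wild-type pools 1, 3 and 4. In the authors' values, also at 1 median per array, 0 genes were called in every list. The counts for coregulators, reported targets, surface ectoderm, sympathetic and cardiac crest, foregut and neural tube fell to 0 under 75th percentile scaling, with no filter on dim probes and with the replicate block, where neural crest fell to 1. Quantile normalization and keeping outlier spots gave 0 for reported targets, surface ectoderm and foregut, and outlier spots or normexp on local background gave 1 for neural tube. The interquartile range filter gave 0 for coregulators, 2 for foregut, 2 for sympathetic and cardiac crest and 3 for Hedgehog genes, and the random block 2 for foregut and 2 for Hedgehog genes. With 1 pool left out the counts were 0 to 0 for coregulators, 0 to 1 for reported targets, surface ectoderm, sympathetic and cardiac crest and foregut, 1 to 2 for neural crest and 0 to 2 for neural tube. The count for neighbours stayed at 0 throughout. The cause of these moves was not tested. Probes at background limit what can be said of *Tcfap2d*.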
